A study of Mus musculus with 10 samples.

Results

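Potassium channel genes were followed in lymphatic endothelial cells (LECs) of mouse ear skin. The members are 97 genes, of 42542 joined over the plates, chosen by a symbol that starts with Kcn followed by letters and a digit. Of the 97, 92 were protein-coding and 5 were antisense RNAs. The family was selected on earlier results of the same comparisons in LECs, so that its counts of changed members are a description of these samples. The genes were measured in 8 Smart-seq plates, on which each well holds 1 sorted cell, and in 2 droplet libraries.

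All plate mice received 62.5 µg of 4-hydroxytamoxifen (4-OHT), the agent that activates the CreERT2 recombinase, from postnatal day (P) 1 to P5, and their LECs were taken at P28. There were 2 plates for each of 4 genotypes: Tie1fl/fl and Tie1 Tie2fl/fl controls without Cre, and Tie1iΔLEC and Tie1 Tie2iΔLEC mice, in which Prox1-CreERT2, driven by a gene of LEC identity, deleted Tie1 or both Tie1 and Tie2. The plates held live CD31+ PDPN+ CD45- CD11b- Ter119- cells. The first Tie1fl/fl plate and the first Tie1iΔLEC plate came from females and the other plates from males. How many mice a plate pooled is not given, so p-values measure only the spread between these plates. The droplet libraries, 1 for each condition, held CD31-sorted cells of wild-type male C57Bl/6j mice given 20 mg/kg of control IgG or of an angiopoietin-2-blocking antibody (Ang2 Ab, clone 18E5) between P16 and P21, so no test between them was possible. The title of the Ang2 Ab library also holds the word control, and its treatment field was followed.

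Potassium channels let potassium ions leave a cell or, in the inward rectifiers, keep its resting potential close to the potassium equilibrium. In endothelium the membrane potential they set determines the driving force for calcium entry. Tie1 and Tie2 (gene Tek) are endothelial receptor tyrosine kinases, and Ang2 is a ligand of Tie2.

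LECs were taken as the wells left after 252 fibroblast-like and 26 keratinocyte-like wells were removed, which left 2748 of 3048 wells, with 304 to 365 wells and 67313201 to 104733915 counts per plate. Prox1, the transcription factor of LEC identity, was detected in 99.5% of these wells. Summed over them, Tie1 stood at 2218 to 2863 counts per 1000000 (CPM) on the control plates and at 459.8 to 746.3 CPM on the Cre plates, and Tek at 32.2 and 53.0 CPM on the Tie1 Tie2iΔLEC plates against 214.7 to 339.0 CPM on the others, so that each targeted gene was lower on the plates labelled as deleted for it. Collector-like LECs made up 1.10% and 3.92% of the wells on the Tie1 Tie2iΔLEC plates against 11.1% to 21.5% on the other plates, and whether that share moved with a member's level was not tested. In these sums over wells, fewer cells of a type and less RNA per cell cannot be told apart. The 2 droplet libraries held 1360 IgG and 782 Ang2 Ab LECs, with 18104282 and 9898367 unique molecular identifiers (UMIs). They shared 5 cell barcodes.

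Of the 97 members, 91 had at least 1 count in LECs of the plates, 11 reached a mean of 2 CPM and 4 a mean of 10 CPM. The 6 members without a count were Kcnc4, Kcne1, Kcnf1, Kcnj4, Kcnk15 and Kcnk4. The low count filter kept 48 members for testing and left out 49. Per kilobase of exon, the highest mean levels over the 8 plates belonged to Kcnj8, the pore-forming subunit of a vascular ATP-sensitive channel, at 18.3 CPM per kb, to Kcns1, a silent Kv subunit, at 8.55 CPM per kb, and to Kcnn3, a small-conductance calcium-activated channel, at 6.59 CPM per kb. Kcnj14, an inward rectifier, followed at 3.66 CPM per kb, Kcng2, a silent Kv subunit, at 1.90 CPM per kb, and Kcnk6, a 2-pore channel gene, at 1.08 CPM per kb. The next levels, between 0.37 and 0.92 CPM per kb, were those of Kcne3, Kcnh2, Kcnq1ot1, Kcnj15, Kcnk1, Kcnn1, Kcnab3, Kcnn4 and Kcnab3os. Of these 15 members, 13 were also among the 15 highest by CPM without the length. These means include the Cre plates, so that the ranking is not one of control LECs. Over the 6 plates without Tie1/-2 deletion, and without the length, Kcnn3 had a mean of 82.8 CPM. Kcns1 was at 18.25 CPM there, Kcnj8 at 14.3 CPM and Kcng2 at 1.76 CPM. Kcnk1 rested on few cells, since 75.0% of its counts came from 1 well. Of the 17 voltage-gated Kv1 to Kv4 genes, 16 had a count and none reached 2 CPM, whereas of the 15 inward rectifiers 3 did and of the 9 calcium-activated channel genes 3 did. Among these, the inward rectifier Kcnj15 reached 2 CPM only through the Tie1 Tie2iΔLEC plates, with a mean of 1.26 CPM over the other 6. The calcium-activated Kcnn2 did so only through the Tie1iΔLEC plates, with a mean of 1.59 CPM over the other 6.

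**Figure D1:**
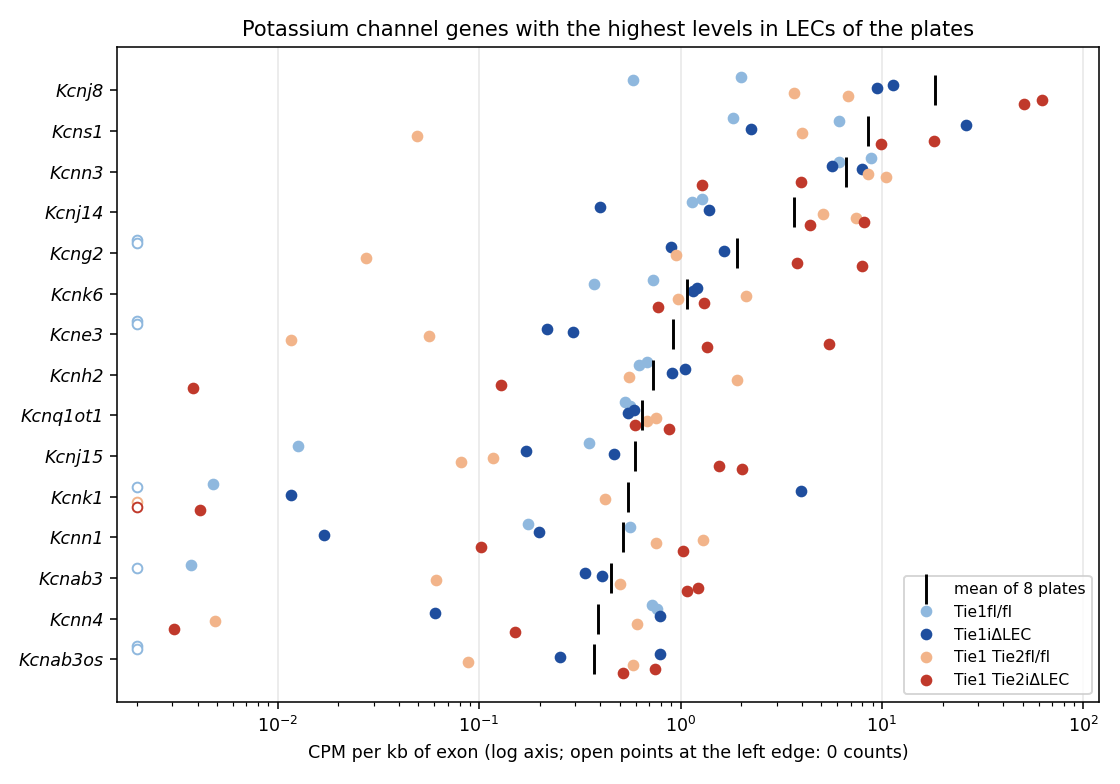
Levels in LECs of the members with the highest mean level, in CPM per kb of exon on a log axis, with 1 point for each of the 8 plates and the genotype given by colour. Kcnj8 spans from 0.58 to 62.4 CPM per kb, whereas Kcnq1ot1 stays between 0.53 and 0.88 CPM per kb.

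The sequences before the starts of the 3 members with the highest level per kb are shown because 2 of them were higher and 1 was lower on both Tie1 Tie2iΔLEC plates than on the controls of that pair. They are the 250 bases before the gene start in RefSeq, on build GRCm38.p6 and on the strand of the gene, with CG pairs in capitals. Kcnj8 is at chr6:142571615-142571864 (minus strand), Kcns1 at chr2:164171114-164171363 (minus strand) and Kcnn3 at chr3:89519914-89520163 (plus strand).
Kcnj8: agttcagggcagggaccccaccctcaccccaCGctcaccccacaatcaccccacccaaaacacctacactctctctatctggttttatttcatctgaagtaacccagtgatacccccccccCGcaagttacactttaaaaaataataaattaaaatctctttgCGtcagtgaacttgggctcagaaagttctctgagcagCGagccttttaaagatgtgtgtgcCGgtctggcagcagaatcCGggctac
Kcns1: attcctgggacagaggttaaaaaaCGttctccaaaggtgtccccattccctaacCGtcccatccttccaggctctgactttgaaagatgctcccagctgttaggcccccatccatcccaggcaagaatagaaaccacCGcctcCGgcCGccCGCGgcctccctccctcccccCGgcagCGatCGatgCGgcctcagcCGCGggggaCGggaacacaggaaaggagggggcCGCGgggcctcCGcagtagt
Kcnn3: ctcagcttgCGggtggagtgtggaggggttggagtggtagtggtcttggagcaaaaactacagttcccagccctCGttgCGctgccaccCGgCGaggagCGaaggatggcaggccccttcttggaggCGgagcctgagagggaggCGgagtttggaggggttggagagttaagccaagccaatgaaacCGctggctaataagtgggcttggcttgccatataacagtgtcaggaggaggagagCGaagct
These stretches differ in base composition. Kcnj8 had a GC content of 49.2% with 6 CG pairs, Kcnn3 of 58.8% with 10 and Kcns1 of 63.2% with 17, against medians of 52.4% and 6 over 32851 promoters and of 58.8% and 7 over the 70 members with a promoter in the table. The FOXO core GTAAACA, read on both strands and not overlapping the second motif searched, was present in 3.17% of all promoters and in 0 member promoters. The GATA core AGATAAG, on both strands, was present in 2.74% of all promoters and in 1 member promoter, that of Kcnip3, a partner of Kv4 channels.

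The first comparison asks which members differ in LECs without Tie1 and in LECs without both receptors, each against the floxed controls of its own cross. Of the 48 members tested, 0 were called with Tie1 deletion by edgeR's quasi-likelihood test at an adjusted p of 0.05, as 0% of all 19920 genes were. The deleted gene Tie1 itself was not called in this contrast, at a log2 fold change of -1.92 ± 0.25 (edgeR adjusted p = 0.2545). The 0 calls therefore do not show that members were unchanged. At an unadjusted p under 0.05 there were 10 members, or 856 of all genes (4.3%), and DESeq2 called 5 of the 91 members with a count, where it called 0.801% of 30445 genes. With Tie1/-2 deletion 1 member, Kcnj8, was called, and it rose, where 1.14% of all genes were called, 0.301% upwards and 0.843% downwards. At an unadjusted p under 0.05 there were 11 members, where 10.6% of all genes were, and DESeq2 called 8 members and 3.62% of its genes. The test of the difference between the deletions called 0 members (0.12% of all genes), with 11 members at an unadjusted p under 0.05 (7.32% of all genes) and 3 called by DESeq2, which called 1.66% of its genes. For the average of both deletions, Kcnj8 and Kcne3 were called, both upwards, where 0.944% of all genes were called, 0.286% upwards and 0.658% downwards. At an unadjusted p under 0.05 there were 13 members in that average, where 9.83% of all genes were. The median log2 fold change of the tested members was 0.12 with Tie1 deletion and -0.18 with Tie1/-2 deletion, and that of all genes was 0.00 in both to 2 decimals.

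Kcnj8 encodes Kir6.1, which forms ATP-sensitive channels with a sulfonylurea receptor in pericytes and smooth muscle. It stood at 5.06 and 1.48 CPM on the Tie1fl/fl plates, at 28.8 and 24.0 CPM on the Tie1iΔLEC plates, at 9.30 and 17.3 CPM on the Tie1 Tie2fl/fl plates and at 158.9 and 128.9 CPM on the Tie1 Tie2iΔLEC plates. Both plates of each deletion were above both plates of their controls, and the Tie1 Tie2iΔLEC plates were the highest of the 8. The ratio of the group means was 8.06 with Tie1 deletion and 10.8 with Tie1/-2 deletion. Kcnj8 rose with Tie1/-2 deletion by a log2 fold change of 3.43 ± 0.59 (SE, n = 2 against 2 plates in the 8-plate edgeR fit, adjusted p = 0.0353). With Tie1 deletion the log2 fold change was 3.01 ± 0.58 (edgeR adjusted p = 0.685), and the difference between the deletions was 0.43 ± 0.76 (edgeR adjusted p = 0.994). Averaged over both deletions the log2 fold change of Kcnj8 was 3.22 ± 0.41 (edgeR adjusted p = 0.0129). The call with Tie1/-2 deletion was lost without either Tie1 Tie2fl/fl plate (edgeR adjusted p = 0.264 without the first and 0.124 without the second), without either Tie1 Tie2iΔLEC plate (0.114 and 0.101) and without either Tie1iΔLEC plate (0.0596 and 0.0579). The lone plate left in a group was then assumed to vary like the other groups. Over the fits without 1 plate the log2 fold change with Tie1/-2 deletion stayed between 3.06 and 3.95. The average over both deletions lost its call without the first Tie1 Tie2fl/fl plate (edgeR adjusted p = 0.0708) and without the first Tie1iΔLEC plate (0.0502).

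Single wells carried part of the Kcnj8 counts on the control plates. The highest well held 55.6% and 49.5% of them on the Tie1fl/fl plates and 66.1% and 36.4% on the Tie1 Tie2fl/fl plates, against 26.6% and 17.1% on the Tie1iΔLEC plates and 6.94% and 4.18% on the Tie1 Tie2iΔLEC plates. The share of the highest well was lower on each of the 4 Cre plates than on each of the 4 control plates. At least 1 Kcnj8 count was present in 36 and 5 wells on the Tie1fl/fl plates, 121 and 42 on the Tie1iΔLEC plates, 33 and 74 on the Tie1 Tie2fl/fl plates and 115 and 242 on the Tie1 Tie2iΔLEC plates. After each well was thinned to 50000 counts, Kcnj8 was present in 3.98% and 0.59% of the Tie1fl/fl wells, 18.8% and 7.25% of the Tie1iΔLEC wells, 4.09% and 7.72% of the Tie1 Tie2fl/fl wells and 25.1% and 39.5% of the Tie1 Tie2iΔLEC wells. Unthinned, Tie1fl/fl plate 1 at 11.8% and Tie1iΔLEC plate 2 at 12% were nearly level.

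Because Kcnj8 is a leading gene of mural cells, their markers were read in the same LEC wells. The sum of 9 mural markers was 5.82 and 16.1 CPM on the Tie1 Tie2iΔLEC plates, where Kcnj8 was highest. On their Tie1 Tie2fl/fl controls it was 55.6 and 10.3 CPM. It was 19.5 and 35.2 CPM on the Tie1iΔLEC plates against 19.8 and 11.0 CPM on the Tie1fl/fl plates. Higd1b was at 0 on 6 plates. Rgs5, a defining pericyte gene, ranged from 0 to 1.45 CPM, the latter on the second Tie1iΔLEC plate. Acta2 ranged from 2.17 to 24.1 CPM and Pdgfrb from 0.015 to 17.8 CPM, both highest on the first Tie1 Tie2fl/fl plate. Of the Kcnj8-positive wells, 1 and 3 on the Tie1 Tie2iΔLEC plates also held Rgs5. On the Tie1iΔLEC plates these were 4 and 15 wells.

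**Figure D2:**
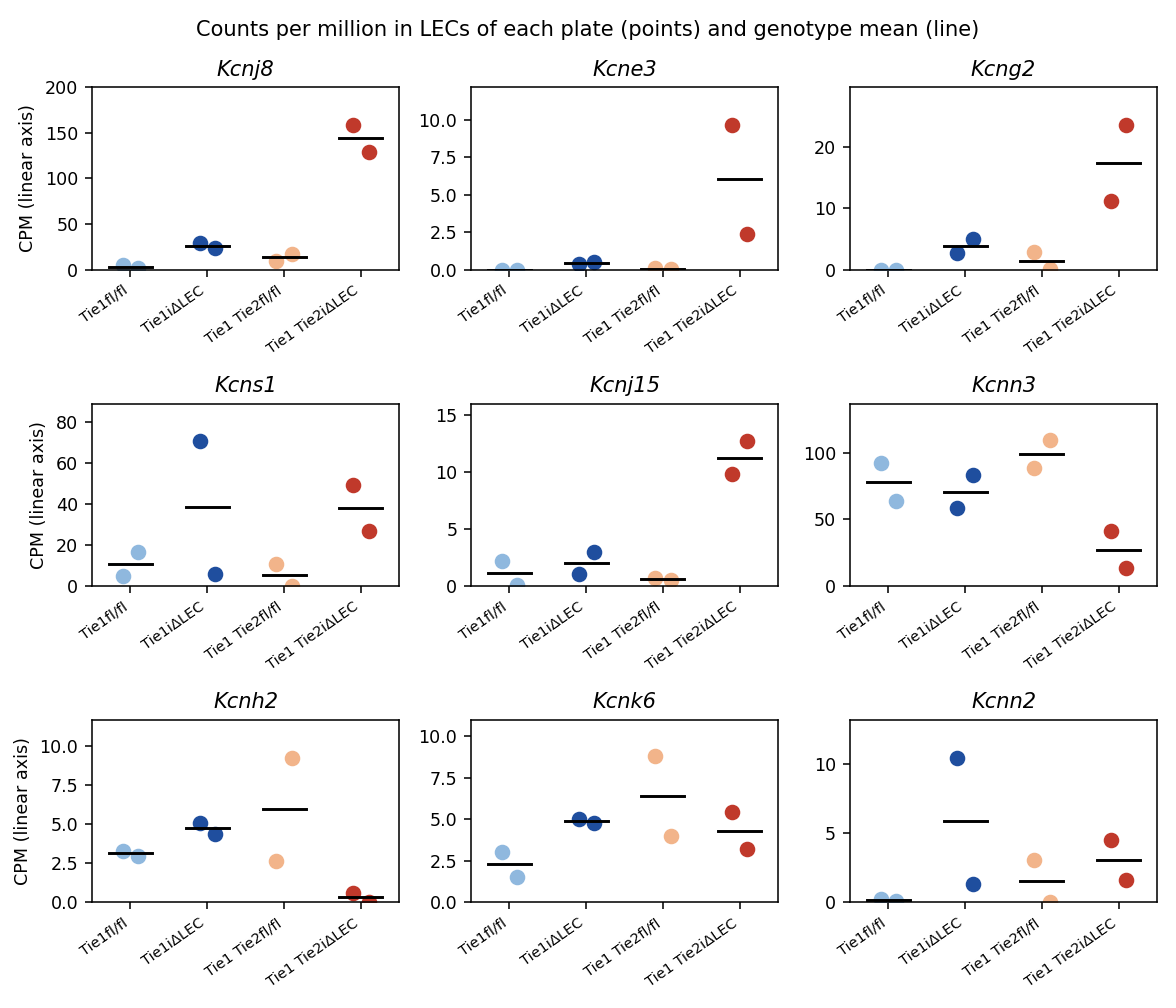
Normalised level in LECs of 9 members in CPM on a linear axis from 0, with 1 point for each plate and a line for the mean of each of the 4 genotypes. For Kcnj8, both plates of each deletion lie above both plates of its own controls, and Kcnn3 and Kcnh2 lie lower on both Tie1 Tie2iΔLEC plates than on the Tie1 Tie2fl/fl plates.

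A second view counted members whose plates did not overlap, with a log2 fold change of at least 1 in either direction, among the 11 tested members with a mean of at least 2 CPM. With Tie1 deletion 4 of the 11 were higher (Kcng2, Kcnj8, Kcnk6 and Kcnn2) and 0 were lower, where 5.62% of genes at that level did not overlap (3.31% higher and 2.31% lower). With Tie1/-2 deletion 4 were higher (Kcng2, Kcnj8, Kcnj15 and Kcns1) and 2 were lower (Kcnh2 and Kcnn3), where 12.2% of genes did not overlap (4.78% higher and 7.37% lower). With 2 plates in a group, of these only Kcnj8 with Tie1/-2 deletion passed the test over all genes. These counts are a description only, since some members reached a mean of 2 CPM through the plates where they were high. Over the 6 plates without Tie1/-2 deletion the mean was 1.76 CPM for Kcng2 and 1.26 CPM for Kcnj15, and over the 6 without Tie1 deletion alone it was 1.59 CPM for Kcnn2. The values of the others follow by family.

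Among the silent Kv subunits, which form no channel alone and modify other Kv channels, Kcng2 was at 0 on both Tie1fl/fl plates, at 2.69 and 4.94 CPM on the Tie1iΔLEC plates, at 2.84 and 0.08 CPM on the Tie1 Tie2fl/fl plates and at 11.3 and 23.7 CPM on the Tie1 Tie2iΔLEC plates. The Kcng2 mean of the Tie1iΔLEC plates was 106 times a floor of 3 counts on each Tie1fl/fl plate. That multiple is not a minimum effect, since the floor covers counting only and the Tie1 Tie2fl/fl plates themselves differed widely. No member was called in that contrast. The log2 fold change of Kcng2 with Tie1/-2 deletion was 3.58 ± 1.41 (edgeR adjusted p = 0.43). That change was 7.69 without the first Tie1 Tie2fl/fl plate and 2.62 without the second, its range over the fits without 1 plate. One well held 62.6% and 44.9% of the Kcng2 counts on the Tie1iΔLEC plates. Annotated antisense or overlapping exons cover 9.1% of the Kcng2 exons. Kcns1 varied between plates of a genotype, at 4.91 and 16.7 CPM on the Tie1fl/fl plates, 70.8 and 6.08 CPM on the Tie1iΔLEC plates, 10.9 and 0.134 CPM on the Tie1 Tie2fl/fl plates and 49.4 and 26.7 CPM on the Tie1 Tie2iΔLEC plates. The plates overlapped for Kcns1 with Tie1 deletion and did not with Tie1/-2 deletion, where the log2 fold change was 2.79 ± 1.64 (edgeR adjusted p = 0.636). It was 8.14 without the first Tie1 Tie2fl/fl plate and 1.80 without the second, again the range over the fits without 1 plate, and 0.09 in capillary-like LECs alone. One well held 92.8% of the Kcns1 counts on the first Tie1fl/fl plate and 95.7% on the first Tie1 Tie2fl/fl plate.

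Among the calcium-activated channels, Kcnn3 (SK3), which hyperpolarises endothelium when intracellular calcium rises, was the most widely detected coding member named here, with a count in 54.4% of LEC wells. It stood at 92.4 and 63.8 CPM on the Tie1fl/fl plates, 59.0 and 83.1 CPM on the Tie1iΔLEC plates, 88.9 and 109.4 CPM on the Tie1 Tie2fl/fl plates and 41.4 and 13.3 CPM on the Tie1 Tie2iΔLEC plates. The Tie1iΔLEC plates lay within the range of their controls or just below it, and both Tie1 Tie2iΔLEC plates were below every other plate. The log2 fold change of Kcnn3 was -0.14 ± 0.49 with Tie1 deletion and -1.86 ± 0.51 with Tie1/-2 deletion (edgeR adjusted p = 0.206), and the difference between the deletions was -1.72 ± 0.70 (edgeR adjusted p = 0.644). Without the first Tie1 Tie2iΔLEC plate, the log2 fold change with Tie1/-2 deletion was -2.93 (edgeR adjusted p = 0.0294), and without the second it was -1.26 (0.398). These were its extremes over the fits without 1 plate, where the adjusted p reached 0.531, and a lone plate was assumed to vary like the other groups. Kcnn2 (SK2) was at 0.21 and 0.093 CPM on the Tie1fl/fl plates against 10.5 and 1.36 CPM on the Tie1iΔLEC plates. However, 1 well held 94.9% and 87.6% of the Kcnn2 counts on the Tie1iΔLEC plates, and 49.3% over the 8 plates came from 1 well. Kcnn4, the intermediate-conductance channel, ranged from 0.016 to 4.06 CPM and overlapped in both pairs.

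Among the inward rectifiers other than Kcnj8, Kcnj15 (Kir4.2) was at 2.21 and 0.08 CPM on the Tie1fl/fl plates, 1.07 and 2.97 CPM on the Tie1iΔLEC plates, 0.74 and 0.52 CPM on the Tie1 Tie2fl/fl plates and 9.81 and 12.7 CPM on the Tie1 Tie2iΔLEC plates. Only the pair for Tie1/-2 deletion did not overlap for Kcnj15, with a log2 fold change of 4.17 ± 1.37 (edgeR adjusted p = 0.316). Kcnj14 (Kir2.4) was at 1.09 to 3.76 CPM on the 4 plates of the Tie1 cross and at 12 to 22.0 CPM on the 4 plates of the Tie1 Tie2 cross, with log2 fold changes of -0.44 ± 0.65 and -0.01 ± 0.65 within the crosses. The plates of the crosses did not overlap for Kcnj14, and within each cross the deletion changed it by less than its SE. Kcnj2 (Kir2.1), the classical strong inward rectifier of vascular endothelium, was at 2.41 and 1.08 CPM on the Tie1fl/fl plates, 0.38 and 1.3 CPM on the Tie1iΔLEC plates, 0.41 and 4.05 CPM on the Tie1 Tie2fl/fl plates and 0 and 0.046 CPM on the Tie1 Tie2iΔLEC plates. Both Tie1 Tie2iΔLEC plates were below every other plate for Kcnj2, whose log2 fold change with Tie1/-2 deletion was -6.40 ± 1.81 (edgeR adjusted p = 0.228). One well held 72.7% and 70.0% of the Kcnj2 counts on the Tie1 Tie2fl/fl plates, and 85.4% and 97.5% on the Tie1fl/fl plates.

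Kcne3, an auxiliary subunit that modifies Kcnq1 and other Kv channels, was at 0 on both Tie1fl/fl plates, at 0.39 and 0.52 CPM on the Tie1iΔLEC plates, at 0.10 and 0.021 CPM on the Tie1 Tie2fl/fl plates and at 9.65 and 2.40 CPM on the Tie1 Tie2iΔLEC plates. The groups did not overlap in either pair. The Kcne3 mean of the Tie1iΔLEC plates was 12.6 times a floor of 3 counts on each Tie1fl/fl plate, which is not a minimum effect, since the floor covers counting only. No member was called in that contrast. The log2 fold change of Kcne3 with Tie1/-2 deletion was 6.63 ± 1.38 (edgeR adjusted p = 0.104). The average over both deletions passed the test (edgeR adjusted p = 0.0351), but with the Tie1fl/fl plates at 0 the fitted size depends on the prior count and is not given as a fold. That call was lost in 7 of the 8 fits without 1 plate, where the edgeR adjusted p was 0.0777 to 0.133, and kept without the second Tie1 Tie2iΔLEC plate (0.045). All counts of Kcne3 on the second Tie1iΔLEC plate came from 1 well. Kcnab3, the Kvβ3 subunit, was at 0.011 and 0 CPM on the Tie1fl/fl plates against 0.96 and 1.17 CPM on the Tie1iΔLEC plates. On the latter, 1 well held 51.2% and 98.9% of the Kcnab3 counts. The gene shares 5.13% of its exon bases with the antisense RNA Kcnab3os.

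Kcnh2 (ERG), best known for repolarising the heart, was at 3.29 and 3.0 CPM on the Tie1fl/fl plates, 5.11 and 4.38 CPM on the Tie1iΔLEC plates, 2.68 and 9.27 CPM on the Tie1 Tie2fl/fl plates and 0.63 and 0.018 CPM on the Tie1 Tie2iΔLEC plates. The Tie1 Tie2iΔLEC plates were the lowest of the 8, and the log2 fold change with Tie1/-2 deletion was -4.23 ± 1.40 (edgeR adjusted p = 0.321). Over the fits without 1 plate it ranged from -8.27, without the first Tie1 Tie2iΔLEC plate, to -3.07, without the second Tie1 Tie2fl/fl plate. Kcnk6 (TWIK-2), a 2-pore background channel, was at 3.03 and 1.55 CPM on the Tie1fl/fl plates, 5.02 and 4.78 CPM on the Tie1iΔLEC plates, 8.77 and 4.01 CPM on the Tie1 Tie2fl/fl plates and 5.41 and 3.22 CPM on the Tie1 Tie2iΔLEC plates. The log2 fold change of Kcnk6 was 1.10 ± 0.69 with Tie1 deletion and -0.57 ± 0.69 with Tie1/-2 deletion. Kcnq1ot1, an imprinted antisense RNA of the Kcnq1 locus, was the steadiest of the members with a high level, at 49.5 to 54.5 CPM on the plates of the Tie1 cross and 55.1 to 81.8 CPM on those of the Tie1 Tie2 cross. As the strand setting of the counting is not given in the sources used here, reads of Kcnq1ot1 and of sense transcripts of that locus cannot be told apart.

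**Figure D3:**
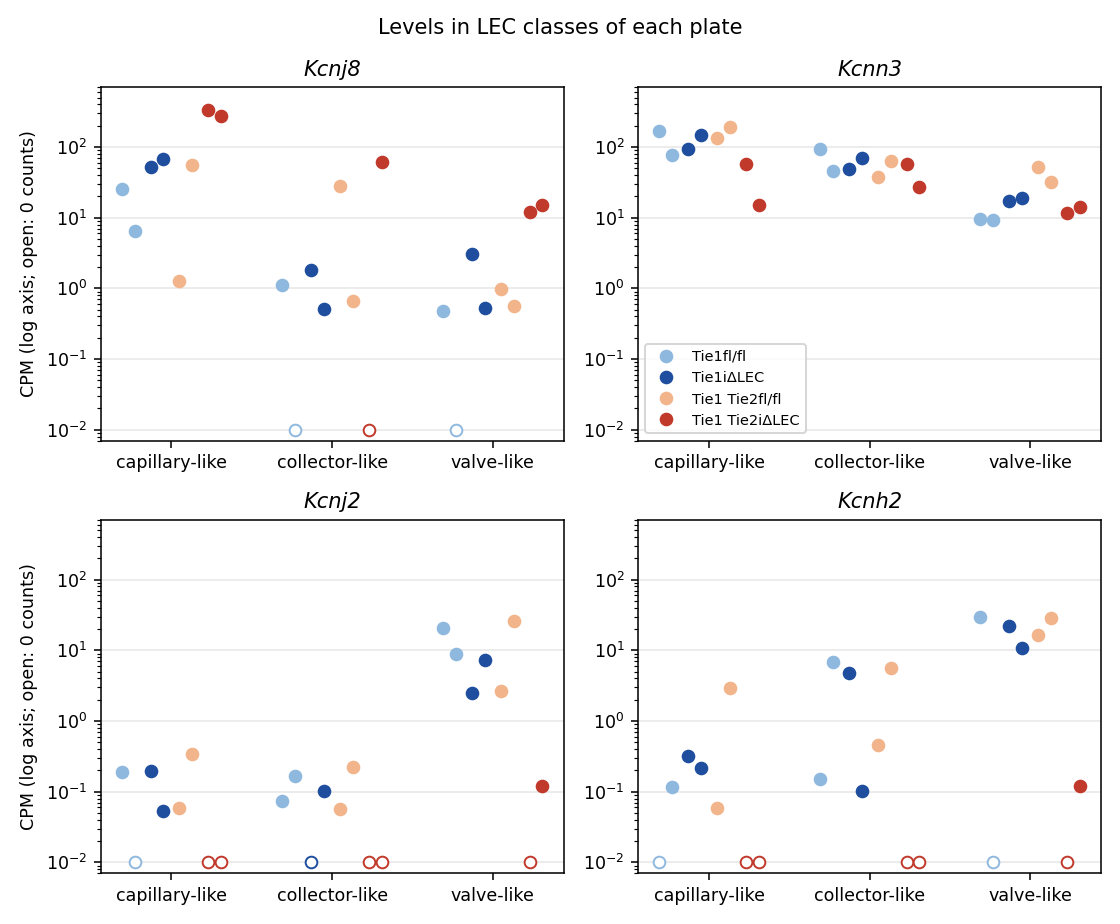
Levels of Kcnj8, Kcnn3, Kcnj2 and Kcnh2 in capillary-like, collector-like and valve-like LECs in CPM on a log axis, 1 point for each plate, open where the count is 0, and colour for the genotype. Kcnj8 and Kcnn3 lie higher in capillary-like than in valve-like LECs, and Kcnj2 lies highest in valve-like LECs except on the first Tie1 Tie2iΔLEC plate, where all 3 values are 0.

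Members differed between LEC classes, which were named by markers and are described without a test. Many LEC wells had no class, 214 of 365 and 202 of 357 on the Tie1 Tie2iΔLEC plates and 130 to 176 on each other plate. The capillary-like cluster of the plates had 3 of 6 capillary markers raised. Kcnj8 was higher in capillary-like than in valve-like LECs on 8 of 8 plates and higher than in collector-like LECs on 7 of 8. In capillary-like LECs Kcnj8 was at 25.9 and 6.50 CPM on the Tie1fl/fl plates and at 52.4 and 67.7 CPM on the Tie1iΔLEC plates. There it was at 1.28 and 56.5 CPM on the Tie1 Tie2fl/fl plates and at 329.9 and 273.1 CPM on the Tie1 Tie2iΔLEC plates. Within capillary-like LECs alone, Kcnj8 had a log2 fold change of 3.40 with Tie1/-2 deletion (edgeR adjusted p = 0.49) against 3.43 in all LECs, and of 1.93 with Tie1 deletion (edgeR adjusted p = 0.984) against 3.01 in all LECs. Kcnn3 in capillary-like LECs was 57.1 and 14.9 CPM on the Tie1 Tie2iΔLEC plates and 76.1 to 189.1 CPM on the other 6. Collector-like LECs of the Tie1 Tie2iΔLEC plates numbered 4 and 14 wells, so that these plates add little to the 7 of 8 for Kcnj8. On the 4 control plates alone Kcnj8 was higher in capillary-like than in collector-like LECs on 3. Among the 3 classes, Kcnj2 and Kcnh2 had their highest mean over the 8 plates in valve-like LECs, at 8.56 and 13.5 CPM. In valve-like LECs Kcnj2 was at 2.52 to 26.2 CPM on the 6 plates without Tie1/-2 deletion and at 0 and 0.12 CPM on the Tie1 Tie2iΔLEC plates, which held 39 and 20 valve-like wells. Kcnh2 in valve-like LECs was at 0 and 0.12 CPM on these plates too, and at 0 on the second Tie1fl/fl plate, against 10.9 to 29.2 CPM on the other 5. The Kcnj2 values rest on few cells, since 3 to 21 LEC wells of any class held a Kcnj2 count on each plate without Tie1/-2 deletion. Those of Kcnh2 are limited in the same way, since 1 LEC well held 95.8% of its counts on the first Tie1fl/fl plate.

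The second comparison asks what Ang2 blocking did in LECs of the droplet libraries. Of the 7 members with at least 100 UMIs in LECs, 3 were at least 2-fold higher with Ang2 Ab (Kcnj8, Kcng2 and Kcns1) and 0 were 2-fold lower, where 2.03% of the 10811 genes at that depth were past 2-fold, 1.09% higher and 0.943% lower. The minimum is on the sum of both libraries, and Kcnj8, Kcng2 and Kcns1 had 49, 27 and 19 UMIs with IgG and 218, 125 and 89 with Ang2 Ab, so they passed it through the library where they were high and the count is a description only. Kcnj8 went from 2.71 UMIs per 1000000 UMIs (UPM, 95% exact Poisson interval 2.00 to 3.58) with IgG to 22.0 (19.2 to 25.2) with Ang2 Ab, a ratio of 8.14 (5.95 to 11.3). Intervals cover counting error only. Kcng2 went from 1.49 to 12.6 UPM, a ratio of 8.47 (5.55 to 13.4), and Kcns1 from 1.05 to 8.99 UPM, a ratio of 8.57 (5.18 to 14.9). Kcnn3 was 39.9 UPM with IgG and 23.8 with Ang2 Ab, a ratio of 0.598 (0.514 to 0.693), and Kcnj2 went from 7.40 to 13.5 UPM, a ratio of 1.83 (1.43 to 2.34). The Kcnj2 UMIs came from 36 IgG and 37 Ang2 Ab LECs, and the highest cell held 11.9% and 22.4% of them. Kcnk6 had a ratio of 1.17 (0.83 to 1.63) and Kcnq1ot1 of 1.01 (0.946 to 1.08). With at most 5% mitochondrial UMIs per cell 3 members reached 100 UMIs and 1 was past 2-fold, where 2.01% of genes were. Kcnj8, Kcng2 and Kcns1 were also higher on both Tie1 Tie2iΔLEC plates than on their controls, by the non-overlap rule that 4.78% of genes met upwards. Kcnj8 and Kcng2 met it with Tie1 deletion too, where 3.31% of genes did. The family was selected on these same comparisons, so this overlap is a description only and does not make 1 comparison evidence for another.

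**Figure D4:**
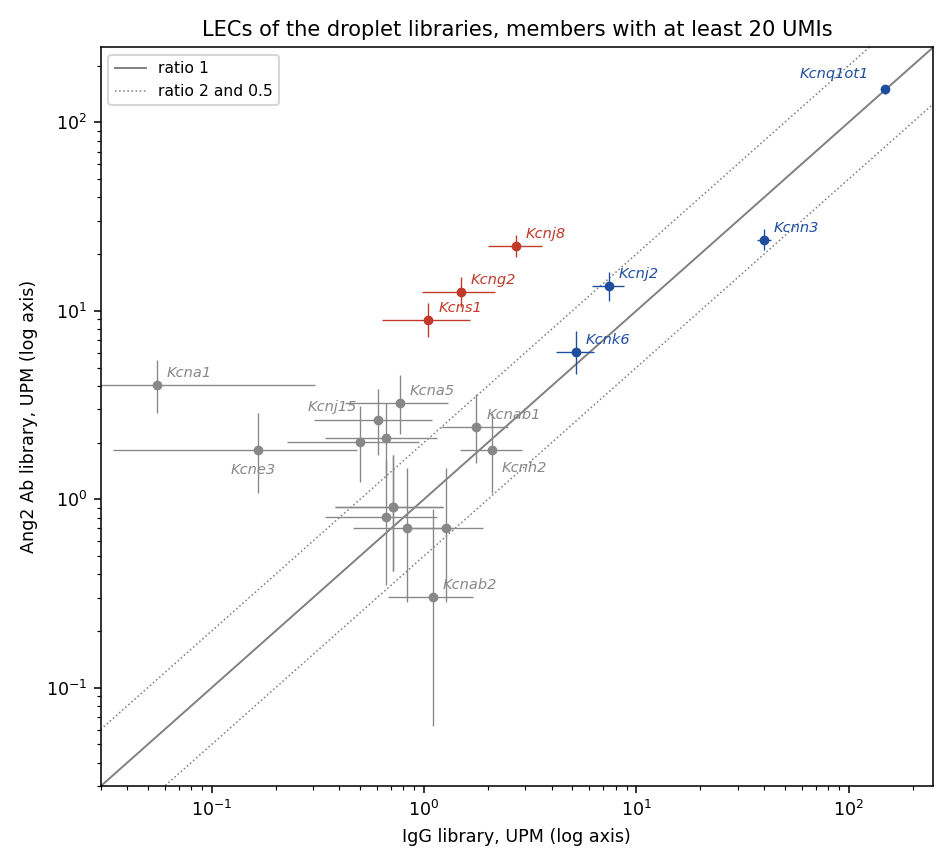
Levels in LECs of the Ang2 Ab library against those of the IgG library in UPM on log axes, 1 point for each member with at least 20 UMIs, with exact 95% Poisson intervals as bars and lines at ratios of 1, 2 and 0.5. Kcnj8, Kcng2 and Kcns1 lie higher with Ang2 Ab by 8.14, 8.47 and 8.57 times, Kcnn3 lies lower, and Kcnq1ot1 is close to the line of ratio 1.

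Below 100 UMIs the ratios are less certain. Kcna5, the Kv1.5 channel, had a ratio of 4.18 (2.17 to 8.48), Kcnj15 of 4.32 (2.06 to 9.69) and Kcne3 of 11.0 (3.20 to 58.2), the last from 3 UMIs with IgG and 18 with Ang2 Ab. The ratio of Kcnab2, the Kvβ2 subunit, was 0.274 (0.052 to 0.925). In Ang2 Ab LECs the highest cell held 25.0% of the Kcna5 UMIs, 7.69% of the Kcnj15 UMIs and 38.9% of the Kcne3 UMIs. All 40 UMIs of Kcna1 in Ang2 Ab LECs came from 1 cell.

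In LEC classes Kcnj8 was 5.34 and 41.1 UPM in capillary-like LECs with IgG and Ang2 Ab, 1.97 and 9.36 in collector-like LECs and 1.64 and 4.20 in valve-like LECs, the last on 3 and 5 UMIs. Capillary-like LECs were therefore the highest class for Kcnj8 in both libraries, as on 7 of 8 plates. A Kcnj8 UMI was found in 2.94% of IgG LECs and 12.4% of Ang2 Ab LECs, at medians of 11920.5 and 11246.5 UMIs per cell. In blood endothelial cells the shares were 4.03% and 3.16% at medians of 8912 and 7875 UMIs. After thinning to 2000 UMIs per cell the Kcnj8 shares were 0.229% and 3.44% of LECs and 1.15% and 0.729% of blood endothelial cells. The share in IgG LECs was thus below that of blood endothelial cells, and whether it lay above a background was not tested. The sum of mural markers in LECs was 117.5 UPM with IgG and 64.8 with Ang2 Ab, and in blood endothelial cells 588.7 and 652.9. Against Rgs5, Kcnj8 had a ratio of UMIs of 0.0469 in IgG LECs and 0.855 in Ang2 Ab LECs. Mural cells had 0.0883 and 0.0924, and blood endothelial cells 0.0218 and 0.0189. Rgs5 was present in 25.0% and 24.7% of the Kcnj8-positive LECs and in 15.7% and 17.5% of all LECs. In blood endothelial cells it was present in 67.3% and 63.4% of the Kcnj8-positive cells and in 30.1% and 33.7% of all.

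Kcnn3 in capillary-like LECs was 69.5 UPM with IgG and 37.8 with Ang2 Ab, and in collector-like LECs 30.9 and 18.4. Kcnh2 was highest in valve-like LECs, at 12.6 and 10.1 UPM, intervals 7.97 to 18.9 and 5.20 to 17.6. Of the 134 UMIs of Kcnj2 in LECs of each library, 112 came from 1 LEC cluster led by Slc41a1 and Neo1, which had 2 of 6 valve markers raised and was given no class name. There it was 46.2 UPM with IgG and 67.2 with Ang2 Ab.

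**Figure D5:**
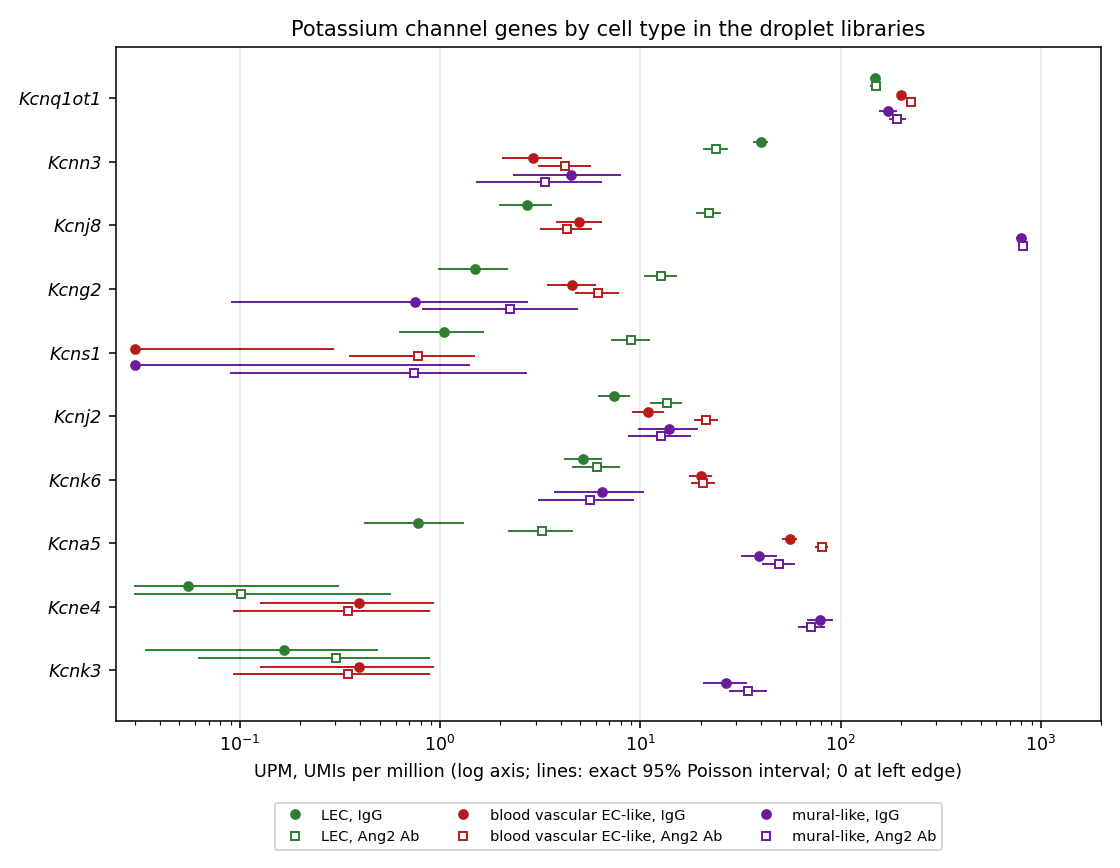
Levels of named members in LECs, blood endothelial cells and mural cells of both droplet libraries in UPM on a log axis, with exact 95% Poisson intervals as bars. Kcnn3 is highest in LECs, Kcna5 in blood endothelial cells and Kcnj8 and Kcne4 in mural cells, in both libraries.

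The third comparison sets LECs beside blood endothelial and mural cells of the same libraries, as a description with 1 library for each condition. Of the 97 members, 42 had a UMI in LECs of both libraries, 40 in blood endothelial cells (1289 and 1296 cells) and 35 in mural cells (179 and 221 cells). The 95% intervals of Kcnn3 lay lower in blood endothelial and in mural cells than in LECs in both libraries, at 2.92 and 4.23 UPM in blood endothelial cells and 4.52 and 3.35 in mural cells, the value of each pair being IgG and then Ang2 Ab.

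Blood endothelial cells carried a Kv channel gene that LECs had at low levels. Kcna5 was 55.8 and 80.6 UPM there and 0.773 and 3.23 in LECs. Among blood endothelial clusters Kcna5 was 128.8 and 142.3 UPM in a capillary cluster led by Rgcc and Car4, and 3.85 and 13.3 UPM in a cluster led by Ackr1, a venular gene. Kcne3 was 28.1 and 31.0 UPM in the cluster led by Sema3g and Gkn3. Kcnj2 was 11.0 and 21.3 UPM over all blood endothelial cells and 19 and 57.1 in the cluster led by Prnd, Kit and Apln. Kcnk6 (20.0 and 20.6) and Kcnn4 (8.59 and 9.24) were close to level between the libraries.

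In mural cells Kcnj8 was 795.7 and 818.3 UPM, a ratio with Ang2 Ab of 1.03 (0.968 to 1.09), and in blood endothelial cells 4.97 and 4.32, a ratio of 0.869 (0.587 to 1.28). Both intervals lie below the interval of the LEC ratio, 5.95 to 11.3. The cluster led by Kcnj8 and Abcc9 held 920.8 and 1040 UPM, and the cluster led by Myh11, a smooth muscle gene, 175.2 and 56.1. Clusters were formed without the members. Kcne4, an auxiliary Kv subunit, was 79.2 and 71.4 UPM in mural cells against 1 UMI in LECs of each library, and Kcnk3 (TASK-1), an acid-sensitive 2-pore channel, was 26.8 and 34.6.

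Genes that work with these channels were read from a list of 28 partners, of which 25 were tested and 0 were called by edgeR in any of the 4 contrasts. At an unadjusted p under 0.05 there were 2 partners with Tie1 deletion, 3 with Tie1/-2 deletion, 2 in the difference and 1 in the average, and DESeq2 called 1, in the average. Abcc9, the sulfonylurea receptor that pairs with Kcnj8, had a log2 fold change of 1.97 ± 1.31 with Tie1 deletion and 0.89 ± 1.27 with Tie1/-2 deletion (edgeR adjusted p = 0.904). In droplet LECs Abcc9 was 3.26 UPM with IgG and 10.1 with Ang2 Ab, a ratio of 3.10 (2.22 to 4.35). Abcc9 was present in 13.9% and 24.0% of the Kcnj8-positive wells of the Tie1 Tie2iΔLEC plates and in 8.80% and 20.0% of their other LEC wells. It was more frequent in the Kcnj8-positive wells on 6 of the 8 plates and less frequent on 2, the second Tie1fl/fl plate (0% of 5 wells against 5.23%) and the second Tie1 Tie2fl/fl plate (13.5% against 15.5%). Piezo2, a mechanosensitive channel, had a ratio of 1.61 (1.52 to 1.69) and Trpv4, a calcium-permeable channel, of 0.586 (0.494 to 0.692).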

How the data were processed

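Ear skin cells were measured on 8 Smart-seq plates and in 2 droplet libraries. The submitters' processing notes name TopHat2 2.1.1, SAMtools 0.1.18, Subread with featureCounts, R 3.5.1, Seurat 4.0.6, Cell Ranger 2.1.1 and GRCm38. The authors deposited raw read counts per gene and well and raw UMI counts per gene and droplet. The strand setting and the number of mice behind a plate are not given in the sources used here. The symbol-named and Ensembl-named count tables, 1 plate of each for every genotype, were joined by gene (42542 genes, 95.8% to 97.0% of counts). Median genes per well were 5778 to 6844.5 on the symbol-named plates and 3576.5 to 4978 on the Ensembl-named plates. Shares of wells with a count are therefore not alike between the 2 layouts. Median counts per well overlapped, at 156110 to 276610 on the symbol-named and 185020 to 229660 on the Ensembl-named plates. The layouts thus differ in genes found per well and not simply in depth, and whether thinning evens this out was not tested. Total counts were 71309205 to 110741537 per plate, and 42337184 (IgG) and 31720670 (Ang2 Ab) UMIs. These limit the precision of low genes.

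Wells with at least 1000 genes (3026) and droplets with at least 500 genes and at most 10% mitochondrial UMIs were clustered without the members (scanpy 1.11.5, leidenalg 0.10.2, 2000 variable genes, 30 components, resolution 1.0). The naming rule was set after the clusters were seen. Markers counted where raised 1.5-fold and detected in 10% of a cluster's cells. A plate cluster was an LEC cluster unless at least 3 markers of a non-endothelial type were raised. A droplet cluster took the type with the largest share of its markers raised, at least 3, or else the LEC type where 3 markers of an LEC class were raised, as in the valve-like cluster led by Fibin and Adm, with 2 LEC markers. Of 3 shallow droplet clusters, at 0.1595 to 0.1725 times the median UMIs of their library, 2 with 3 and 4 blood endothelial markers had none among their 10 leading genes and stayed unnamed. The other, with 6 LEC markers, had Ccl21a and Pdpn among them and was kept as LECs. Scrublet marked 20 IgG and 2 Ang2 Ab droplets (0.58% and 0.07%), which were left out, and in the Ang2 Ab library it may not have worked.

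Counts were summed over the LEC wells of each plate and tested in 1 fit of all 8 plates (edgeR 4.0.16 with TMM factors, genes kept by filterByExpr, the quasi-likelihood test and p-values adjusted by Benjamini-Hochberg over 19920 genes at 0.05). DESeq2 1.42.0 was an alternative. The script was tested on simulated data. Levels are TMM-scaled CPM, divided by exon length where written per kb. Droplet UMIs were summed by type and given per 1000000 UMIs (UPM), with exact 95% intervals that cover counting error only, and a member was called past 2-fold where its UMIs in the pair of libraries summed to 100 or more. Named were the 15 highest members per kb, every member called, those whose plates did not overlap, the 5 highest in blood endothelial and in mural cells, and those past 2-fold in droplets. Kcn genes named beyond these were chosen after their values were seen. The members and lists were chosen with earlier results of these data known. Alternatives changed the filter, scaling, test, wells, clustering and plates. Certain items are not reported here.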

Additional observations from a re-analysis of the deposited data

Results flagged for a closer look

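For Kcnh2, which encodes the ERG channel, the plates of the deletions lay on opposite sides of their controls. Both Tie1iΔLEC plates were above both Tie1fl/fl plates (5.11 and 4.38 against 3.29 and 3.0 CPM), and both Tie1 Tie2iΔLEC plates were below both Tie1 Tie2fl/fl plates (0.63 and 0.018 against 2.68 and 9.27 CPM). The log2 fold change was 0.59 ± 1.22 with Tie1 deletion (edgeR adjusted p = 1) and -4.23 ± 1.40 with Tie1/-2 deletion (edgeR adjusted p = 0.321), neither of which passed the test. The log2 fold change with Tie1/-2 deletion minus that with Tie1 deletion was -4.83 ± 1.82 (edgeR adjusted p = 0.625), so this difference did not pass the test over all genes. On the first Tie1fl/fl plate 1 well held 95.8% of the Kcnh2 counts. Of the classes above, Kcnh2 was highest in valve-like LECs, with a mean of 13.5 CPM. Valve-like LECs made up 13.1% and 14.9% of LEC wells on the Tie1iΔLEC plates, against 8.9% and 9.2% on the Tie1fl/fl plates. They made up 10.7% and 5.6% on the Tie1 Tie2iΔLEC plates, against 13.4% and 13.6% on the Tie1 Tie2fl/fl plates. Kcnh2 was also lower within valve-like LECs of the Tie1 Tie2iΔLEC plates than of their controls. Whether these shares moved the Kcnh2 levels was not tested.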

How the results depend on the processing

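Over 12 named log2 fold changes and 212 alternatives, 177 kept their direction and side of the threshold, 20 lost the call, 15 gained one and 0 reversed. Among the 12, only Kcnj8 with Tie1/-2 deletion and the averages of Kcnj8 and of Kcne3 were called. All 20 losses fell on the alternatives of these, and the other results could keep their side by staying uncalled. The pooled count is therefore no measure of how stable the calls were. Without the filter on low counts, edgeR called 9 members with Tie1 deletion, 11 with Tie1/-2 deletion, 7 in the difference and 12 in the average, of 91 members, where 0.864%, 3.88%, 2.01% and 3.55% of 30445 genes were called. DESeq2 called 5, 8, 3 and 9, where 0.801%, 3.62%, 1.66% and 3.21% of genes were called. In capillary-like LECs alone 0 of 23 members tested were called with Tie1/-2 deletion and 0 in the average, where 0.315% and 0.223% of genes were called. With all wells 1 of 53 was called in the average, where 0.811% of genes were. With so few members tested, such counts cannot show that a signal was lost. Each fit without 1 plate left a lone plate in a group, so that its number of called members is not set against a share. The cause of these changes was not tested, though fewer wells or plates enter some of them. Over the other alternatives the log2 fold change of Kcnj8 with Tie1/-2 deletion was 3.40 to 3.56 (adjusted p 2.077e-14 to 0.4905), that of Kcng2 3.56 to 8.12 (0.004452 to 0.4791), that of Kcnn3 -2.15 to -1.83 (2.438e-05 to 0.3904) and that of Kcns1 0.09 to 3.34 (3.184e-06 to 0.9998).

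Replicate numbers in the labels were shared by the single-floxed plates only. Same-numbered single-floxed plates also shared the sex of the mice and the layout of the count table. Deviations from the group means correlated by 0.107 between the first plates. With 2 plates in a group the second plates mirror the first, so this is 1 value and cannot decide whether plates are paired. The replicate block called 0 of 48 members with Tie1 deletion, 1 with Tie1/-2 deletion, 0 in the difference and 1 in the average. Of all genes it called 0%, 0.999%, 0.0703% and 0.758% in that order. In the average Kcne3 was lost (edgeR adjusted p = 0.0675).

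Of the droplet members, 10 of 21 were past 2-fold with at least 20 UMIs (4.75% of genes), 1 of 3 with at most 5% mitochondrial UMIs (2.01% of genes) and, as alternatives added after seeing the data, 0 of 2 in collector-like (1.77% of genes) and 1 of 3 in capillary-like LECs alone (2.03% of genes), where fewer members reach 100 UMIs. All 17 alternatives of the ratios of Kcnj8, Kcng2 and Kcns1 moved by less than the 95% interval of the reported ratio. Members under about 2 CPM or 100 UMIs are limited by depth, and 68 of 76 shares of wells or cells moved after thinning.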

Other observations

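Nerve-associated cells had the highest Kv1 levels of the droplet libraries. A Schwann-like cluster of 17 IgG and 11 Ang2 Ab cells, with Kcna1 and Mbp among its leading genes, held Kcna1 at 2244 and 3136 UPM (UMIs per 1000000) and Kcna2 at 785 and 1036. Both encode Kv1 channels of myelinated axons and their glia. In LECs Kcna1 had 1 UMI with IgG and 40 with Ang2 Ab, the latter in 1 cell.

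Among the wells taken out of the LECs on the plates, 26 keratinocyte-like wells held Kcnk7, a 2-pore channel gene, at 74.5 CPM, with 94.3% of its counts in 1 well, and 252 fibroblast-like wells held Kcnn3 at 50.4 CPM in 55.6% of wells. Kcnj8 was 12.5 CPM in the fibroblast-like wells. These wells were shallow, at 0.088 times the median counts of all wells kept, and whether their Kcnn3 came from fibroblasts was not tested.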
